A study of Mus musculus with 12 samples.

Results

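The comparison set GC-2 cells given MLN4924 in normoxia against GC-2 cells kept in hypoxia with the solvent alone, and asked which genes separate a block of neddylation from low oxygen. Its members are 6 of the 12 libraries of the series, chosen by their labels: 3 of MLN4924 in normoxia and 3 of DMSO in hypoxia. RNA was sequenced from GC-2, an established mouse line that the labels call type B spermatogonia with a wild-type genotype, grown throughout in medium with serum. The MLN4924 libraries come from cells given 1 µM MLN4924 for 24 h in normoxia, and the hypoxia libraries come from cells given DMSO for 24 h at 1% O2. The other libraries, which serve here as levels for orientation, are 3 of DMSO in normoxia and 3 of MLN4924 in hypoxia at the same dose and time. The number after GC in the cell type label rises over the samples. All were taken as GC-2, the line that the titles and the cell line labels name, so all 4 groups are treated as 1 cell line. The series text calls the replicates of a group biological without saying what separated them, so p-values measure the spread between these libraries.

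MLN4924 inhibits the NEDD8-activating enzyme, a heterodimer of Nae1 and Uba3 that charges the ubiquitin-like protein NEDD8 for transfer to cullins. Cullins must carry NEDD8 for cullin-RING ubiquitin ligases to work, and these ligases mark replication factors, CDK inhibitors, the antioxidant factor NRF2 (through KEAP1 and CUL3) and the oxygen-regulated factor HIF-1α (through VHL and CUL2) for degradation. In low oxygen the prolyl hydroxylases that tag HIF-1α for VHL lose activity, and HIF-1α turns on glycolytic, angiogenic and mitophagy genes. MLN4924 acts on the ligases, and low oxygen acts on the tag that one of them reads.

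Values are FPKM, that is fragments corrected for the length of the transcript and for the size of the library, and each difference is the mean log2(FPKM + 1) of the MLN4924 libraries minus that of the hypoxia libraries, with the standard error (SE) of a limma fit to these 6 libraries. A gene was called when its Benjamini-Hochberg adjusted p over all 11751 tested genes was under 0.05, and was tested when at least 3 of the 6 libraries reached 1 FPKM. Folds are on the FPKM + 1 scale and understate the change of genes with low values. Because every value is a share of its library, fewer cells of a kind and less RNA per cell cannot be told apart.

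One hypoxia library stood apart. DMSO hypoxia replicate 1 summed to 633597 FPKM, against 530452 to 557779 in the other 11 libraries, and its mean Spearman correlation with its own group was 0.925, against 0.949 to 0.951 for the other hypoxia libraries and 0.979 to 0.982 elsewhere. Relative to the MLN4924 mean it was 0.33 lower on the log2 scale (median over genes) in the class of longest transcripts and 0.10 higher in the class of shortest, out of 5 classes of equal gene number, where the other hypoxia libraries lay between -0.05 and -0.02 in every class. Each result below was therefore also computed without it where the gene passed the filter on the remaining 5 libraries. Of 15 spermatogonial markers, 8 had a row and 6 of these stayed under 1 FPKM in all 6 libraries, among them the germ cell helicase Ddx4 and the stem cell factor receptor Kit, while Sohlh1 was listed at 0 throughout. Uchl1 (12.6 to 22.4 FPKM) and Gfra1 (1.85 to 3.46 FPKM) were present, and neither was called. Most of the spermatogonial markers searched thus had no row or stayed under 1 FPKM. The fibroblast genes Col1a1 and Vim were abundant, at 365 to 739 and 570 to 1471 FPKM.

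Of the 11751 tested genes, 1938 (16.5%) were higher in the MLN4924 libraries and 1678 (14.3%) were higher in the hypoxia libraries, 3616 in all (30.8%). At a difference of at least 2-fold the counts were 424 (3.61%) and 469 (3.99%). Leaving out DMSO hypoxia replicate 1 raised the counts to 3058 (26.7%) and 2186 (19.1%) of 11464 tested genes, 5244 in all (45.7%), while the counts at 2-fold were 421 (3.67%) and 362 (3.16%). With the genes filtered on all 6 libraries the 2-fold counts without it were 420 and 431, so most of the fall in hypoxia went with the filter. Leaving out any 1 MLN4924 library instead gave 938 to 973 and 970 to 1002 calls. The median SE was 0.15 with the library and 0.10 without it. Of the 3616 calls, 3410 (94.3%) were also made in the same direction without that library, 0 were made in the opposite direction, 136 belonged to genes that no longer passed the filter, each of them higher in hypoxia, and 70 lost the call. Groups that did not overlap were found for 3326 genes (28.3%) with the MLN4924 libraries higher and 2784 (23.7%) with the hypoxia libraries higher. The smallest two-sided p of an exact permutation test is 0.1 with groups of this size, so calls rest on the limma fit. The counts given below for gene lists are to be read against the shares over all tested genes, 16.5% and 14.3% with all 6 libraries and 26.7% and 19.1% without replicate 1. At the other end, the 95% confidence interval of the difference lay within 2-fold in either direction for 8119 genes (69.1%), and for 9088 (79.3%) without replicate 1.

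**Figure D1:**
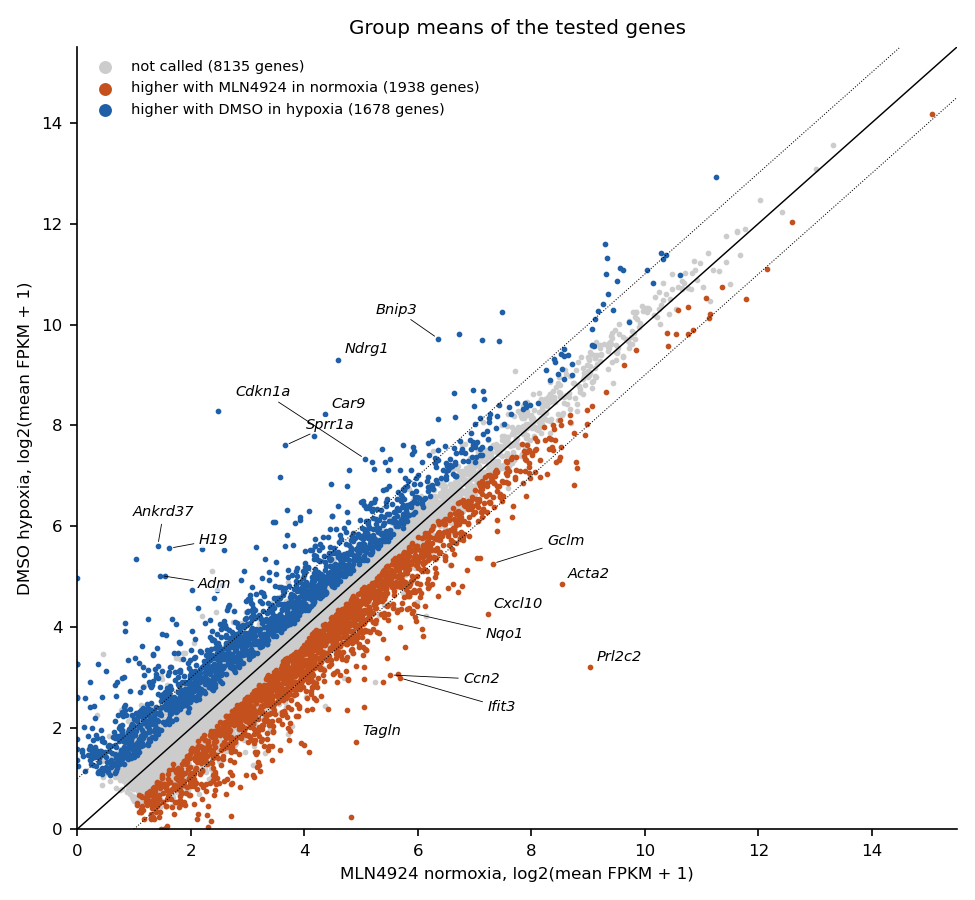
Each point is 1 of the 11751 tested genes, placed by log2(mean FPKM + 1) in MLN4924 normoxia (x axis) and in DMSO hypoxia (y axis); orange and blue points were called higher with MLN4924 (1938 genes) or with hypoxia (1678 genes), grey points were not called, the solid line marks equal levels and the dotted lines a 2-fold difference. Prl2c2 and Acta2 lie farthest out on the MLN4924 side among abundant genes, and Ndrg1, Car9 and Bnip3 on the hypoxia side.

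The widest separation on the MLN4924 side was that of Prl2c2, a proliferin of the prolactin family. It was at 542, 510.45 and 522 FPKM in the MLN4924 libraries and at 11.1, 7.14 and 6.52 FPKM in the hypoxia libraries. The groups lay far apart, with a log2 difference of 5.86 ± 0.18 (SE, 58.2-fold, adjusted p = 4.03e-05). Its near-identical neighbour Prl2c3 differed by 4.59 ± 0.23, and reads of the 2 genes may have been divided between them by the counting, so their separate levels are uncertain. Prl2c3 was at 0, 0 and 0.55 FPKM in hypoxia and passed the filter only through the MLN4924 libraries. In DMSO normoxia Prl2c2 stood at 20.0 ± 1.56 FPKM (SD, n = 3) and in MLN4924 hypoxia at 192 ± 12.7 FPKM.

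Of the 12 genes that led the MLN4924 side, 4 encode contractile or matrix-associated proteins. Acta2, smooth muscle actin, was at 377, 375 and 362 FPKM with MLN4924 and at 27.4, 31.9 and 24.4 FPKM in hypoxia, a difference of 3.69 ± 0.11 (12.9-fold). The actin-binding protein gene Tagln was at 29.1, 30.5 and 28.0 FPKM against 2.28, 2.67 and 2.01 FPKM, and the myosin light chain gene Myl9 at 35.1, 31.2 and 29.9 FPKM against 5.56, 3.59 and 3.91 FPKM. The groups stood far apart in all 3, with differences of 3.19 ± 0.11 for Tagln and 2.64 ± 0.16 for Myl9. Ccn2, a matrix-associated growth factor, was at 43.6, 44.8 and 45.4 FPKM against 7.12, 6.98 and 7.84 FPKM, 5.49-fold apart. Dusp6, the phosphatase that dephosphorylates ERK, was at 40.0, 41.5 and 40.6 FPKM against 5.36, 7.45 and 6.83 FPKM, 5.56-fold apart.

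Among the 12 genes that led this side there were also genes of innate immunity and of glutathione metabolism. Cxcl10, a chemokine induced by interferon, was at 143, 149 and 155 FPKM with MLN4924 and at 21.8, 15.8 and 16.7 FPKM in hypoxia (2.98 ± 0.13). Ifit3, an antiviral protein gene, was at 47.5, 51.9 and 51.3 FPKM against 7.53, 7.03 and 6.39 FPKM (2.68 ± 0.09). Trex1, the cytosolic DNA exonuclease, differed by 2.39 ± 0.17, and Gsta1, a glutathione transferase, by 2.48 ± 0.19, from a level at or near 0 in hypoxia (0.48, 0 and 0.09 FPKM). For the remaining gene, Nolc1, a nucleolar phosphoprotein, the size of the difference depended on 1 library. Nolc1 was listed at 0, 13.9 and 8.14 FPKM in the hypoxia libraries against 46.1 to 52.3 FPKM with MLN4924. Its difference was 3.28 ± 0.96 (adjusted p = 0.046) and became 2.10 (adjusted p = 0.000919) without replicate 1.

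On the hypoxia side the widest separation was that of 2610528A11Rik, at 366, 281 and 289 FPKM in hypoxia and at 4.73, 5.10 and 3.83 FPKM with MLN4924. The difference was -5.81 ± 0.14 (56.2-fold, adjusted p = 2.88e-05), and no library of one group came near the other. Ndrg1, a stress-responsive gene turned on by HIF, was at 696, 563 and 632 FPKM against 21.4, 24.9 and 23.2 FPKM (-4.71 ± 0.10, 26.1-fold). Ankrd37, another HIF target, was at 57.6, 45.2 and 41.4 FPKM against 0.89, 2.15 and 1.98 FPKM (-4.22 ± 0.23). Car9, the cell-surface carbonic anhydrase that regulates pH, was at 339, 262 and 289 FPKM against 19.2, 20.4 and 19.3 FPKM (-3.84 ± 0.11). Without replicate 1 the 4 differences were -5.69, -4.63, -4.09 and -3.74.

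Ero1a, the oxidase that regenerates protein disulfide isomerases, was at 241, 191 and 229 FPKM in hypoxia and at 17.4, 16.8 and 16.9 FPKM with MLN4924. Adm, which encodes the vasodilator adrenomedullin, was at 36.1, 27.1 and 31.5 FPKM against 1.51, 1.94 and 1.83 FPKM. Bhlhe40, a transcriptional repressor of the clock and hypoxia responses, was at 129, 118 and 129 FPKM against 10.1, 11.6 and 11.0 FPKM. These 3 HIF targets differed by -3.61 ± 0.10, -3.55 ± 0.14 and -3.41 ± 0.08, and the groups stood apart in each. The imprinted long noncoding RNA H19 (46.9, 42.04 and 50.1 FPKM against 2.46, 2.10 and 1.68 FPKM) and the cornified-envelope gene Sprr1a (224, 174 and 182 FPKM against 9.99, 13.98 and 11.1 FPKM) were as widely separated, by -3.95 ± 0.13 and -3.94 ± 0.15.

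The other 3 genes of the leading 12 were short or poorly measured transcripts. Rmrp, the RNA of the RNase MRP complex, was at 13.8, 17.8 and 16.1 FPKM in hypoxia and at 0, 2.35 and 0 FPKM with MLN4924. 4930447F24Rik differed by -3.69 ± 0.55. Gm1943 ranged from 8.74 to 88.4 FPKM within the hypoxia group and from 13.5 to 94.3 FPKM within DMSO normoxia, and it was at 3.14, 0 and 0 FPKM with MLN4924. Its difference was -4.09 ± 0.93 (adjusted p = 0.02), with the groups apart and the second widest SE of the leading 24.

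**Figure D2:**
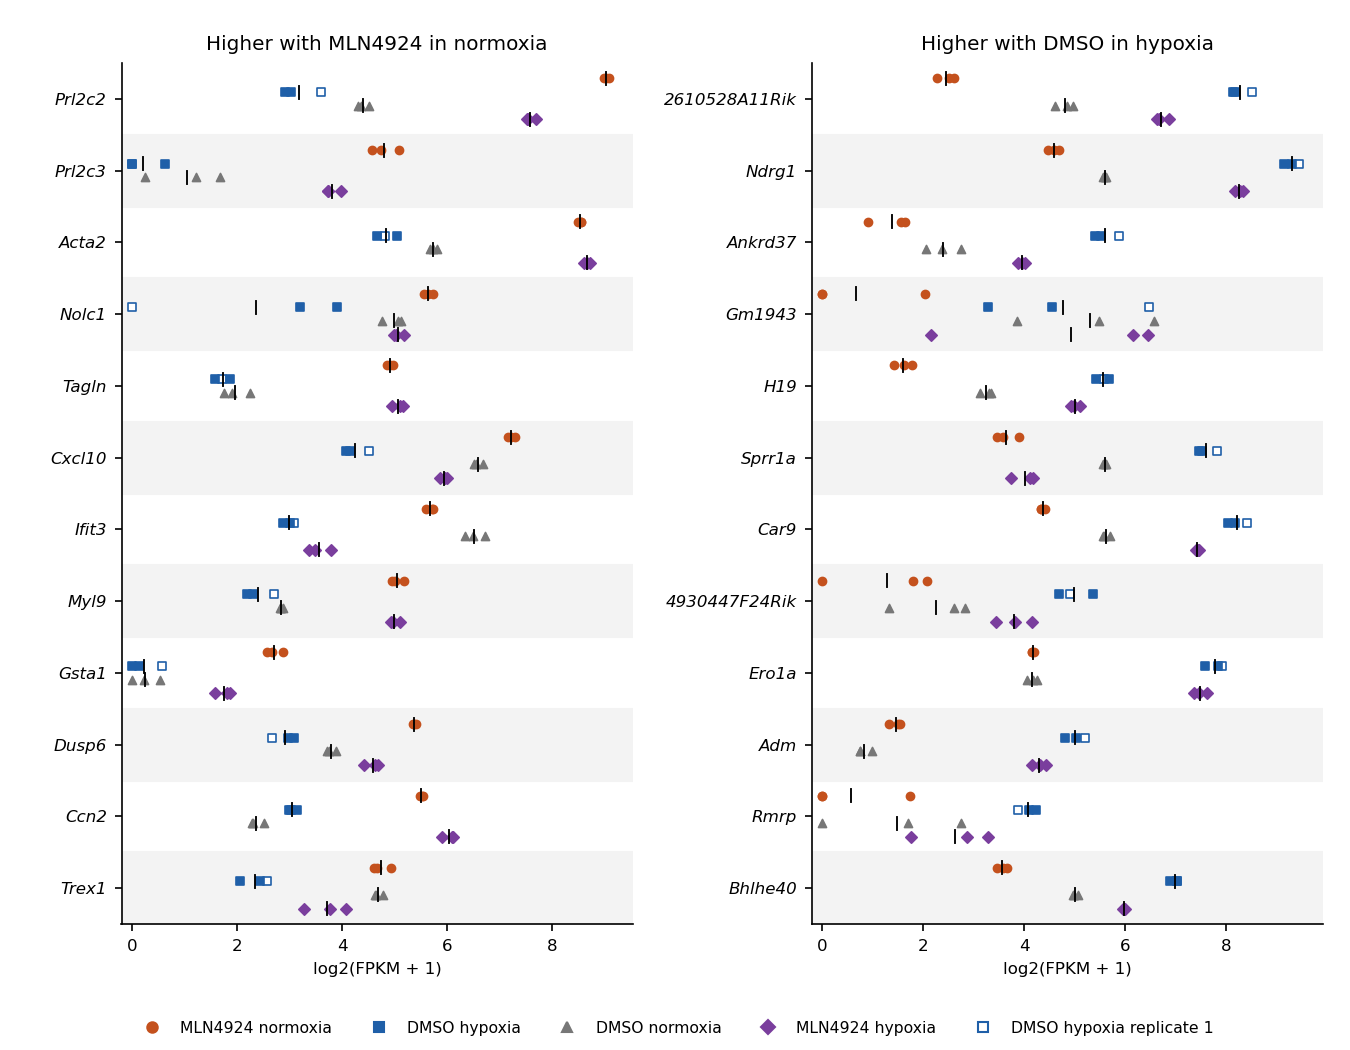
Per-library log2(FPKM + 1) (x axis) of the 12 genes with the largest difference in each direction, in all 4 groups; each symbol is 1 library, black ticks are group means, and the open square is DMSO hypoxia replicate 1. In each gene the orange circles (MLN4924 normoxia) and blue squares (DMSO hypoxia) do not overlap; Nolc1 and Gm1943 show the widest scatter, from 0 to 13.9 FPKM and from 8.74 to 88.4 FPKM in the hypoxia libraries.

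Promoter sequence is shown for leading genes of both sides because their known regulators bind short, recognisable motifs. For the hypoxia side, the 250 bases before the RefSeq transcription start (build GRCm38.p6) are printed for Ankrd37 (chr8:45999851-46000100, minus strand), Ero1a (chr14:45318573-45318822, minus strand) and Adm (chr7:110627407-110627656, plus strand), read 5′ to 3′ on the gene's strand, with capitals marking the HIF core motif, ACGTG or GCGTG on either strand. They hold 4, 3 and 2 matches, and 2 of those in Ankrd37 overlap. The same window of Car9 (chr4:43506776-43507025, plus strand), not printed, held 1, and Ndrg1, Bhlhe40, Tagln and Ccn2 were not matched by symbol. For a gene with several RefSeq starts, on either side, the window with the most matches was taken.
Ankrd37: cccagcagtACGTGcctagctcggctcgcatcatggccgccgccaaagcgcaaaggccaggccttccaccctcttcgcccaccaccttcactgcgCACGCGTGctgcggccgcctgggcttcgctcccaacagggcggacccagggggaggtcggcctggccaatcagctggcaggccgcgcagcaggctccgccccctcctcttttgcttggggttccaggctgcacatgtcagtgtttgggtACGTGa
Ero1a: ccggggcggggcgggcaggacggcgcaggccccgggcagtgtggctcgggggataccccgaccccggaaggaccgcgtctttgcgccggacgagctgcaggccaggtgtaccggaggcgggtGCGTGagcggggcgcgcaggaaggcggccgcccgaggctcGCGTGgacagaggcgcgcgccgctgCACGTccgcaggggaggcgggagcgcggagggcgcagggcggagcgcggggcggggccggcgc
Adm: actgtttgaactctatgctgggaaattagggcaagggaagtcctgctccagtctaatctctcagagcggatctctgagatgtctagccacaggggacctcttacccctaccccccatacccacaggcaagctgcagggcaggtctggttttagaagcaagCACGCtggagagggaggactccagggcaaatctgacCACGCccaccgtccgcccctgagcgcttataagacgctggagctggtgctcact
For the MLN4924 side, Ifit3 (chr19:34583279-34583528, plus strand) is shown with capitals on the interferon-stimulated response element (ISRE), searched on either strand as a pair of TTTC blocks that NN separates, with 2 matches. Myl9 (chr2:156775214-156775463, plus strand) is shown with capitals on the CArG box, the site of serum response factor (SRF), with 1 match.
Ifit3: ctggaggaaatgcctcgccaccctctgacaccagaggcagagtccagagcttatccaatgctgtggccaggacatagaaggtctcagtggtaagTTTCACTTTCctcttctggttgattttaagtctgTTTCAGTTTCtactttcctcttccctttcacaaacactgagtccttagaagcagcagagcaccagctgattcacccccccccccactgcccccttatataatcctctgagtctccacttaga
Myl9: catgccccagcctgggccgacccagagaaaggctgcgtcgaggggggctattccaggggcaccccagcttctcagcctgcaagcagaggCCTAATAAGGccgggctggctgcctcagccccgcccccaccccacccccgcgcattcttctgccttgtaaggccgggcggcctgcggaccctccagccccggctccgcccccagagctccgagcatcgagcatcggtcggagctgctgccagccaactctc
A match describes these letters and is not a measured site. The same 250 bases of Acta2 (CArG box) and Gsta1 (the NRF2 element, TGACNNNGC, on either strand) held 0 matches. The CArG box was searched only in its strict form, CCWWWWWWGG, where W is A or T. The Acta2 window holds ccctatatgg and ccttgtttgg, each with a single C or G in place of a W, so looser forms of the box were not counted.

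Of the 28 lists, HIF targets outside glycolysis had the median difference farthest from 0, with and without replicate 1. Of 38 HIF targets outside glycolysis, all of them tested, 31 were higher in the hypoxia libraries, by 1.49-fold to 26.1-fold, 2 were higher in the MLN4924 libraries and 5 were not called. The median difference was -1.79, against 0.05 over all tested genes, where 14.3% were called higher in hypoxia. Without replicate 1 the counts were 33 and 2 of 37. Vegfa, the angiogenic growth factor, was at 134, 134 and 149 FPKM in hypoxia and at 34.7, 40.5 and 33.7 FPKM with MLN4924 (-1.91 ± 0.10). The mitophagy receptor Bnip3 was at 1105, 680.11 and 746 FPKM against 80.6, 83.1 and 79.0 FPKM (-3.33 ± 0.18), and its relative Bnip3l was at 121, 100 and 109.52 FPKM against 24.3, 28.4 and 24.96 FPKM (-2.05 ± 0.10). In each of these the lowest hypoxia library was well above the highest MLN4924 library.

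The 2 exceptions in the list encode secreted factors, and the reason for their direction was not tested. Stc2, a glycoprotein hormone also induced by the integrated stress response, was at 1.28, 1.40 and 1.76 FPKM with MLN4924 and at 0.39, 0.43 and 0.36 FPKM in hypoxia (0.83 ± 0.13). Angptl4, an inhibitor of lipoprotein lipase, was at 3.58, 3.78 and 4.26 FPKM against 2.07, 1.82 and 1.98 FPKM (0.72 ± 0.12). Both are near the low end of measured levels, and the groups did not overlap in either. Stc2 passed the filter only through the MLN4924 libraries.

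Glycolysis separated the treatments in 1 direction. Of 21 tested genes, 19 were higher in the hypoxia libraries (90.5%) and 0 in the MLN4924 libraries, with a median difference of -1.39 (2.62-fold), and the same counts were obtained without replicate 1. Pfkp, the platelet isoform of phosphofructokinase, was at 81.9, 81.1 and 71.5 FPKM in hypoxia and at 14.7, 16.7 and 16.6 FPKM with MLN4924. Aldoc, an aldolase, was at 11.7, 7.93 and 8.99 FPKM against 1.00, 0.79 and 1.27 FPKM, and Pdk1, the kinase that inhibits pyruvate dehydrogenase, at 33.0, 28.2 and 27.8 FPKM against 6.56, 6.89 and 5.74 FPKM. These 3 differed most in the list, by -2.22 ± 0.09, -2.37 ± 0.17 and -2.05 ± 0.11. Ldha, which makes lactate, was at 2347, 1905 and 1860.41 FPKM against 649.53, 635 and 630.37 FPKM (-1.66 ± 0.11), and Pgk1 at 3043, 2268 and 2358 FPKM against 668, 639 and 627 FPKM (-1.97 ± 0.13). Slc2a1, the glucose transporter, was at 140.07, 189 and 190.17 FPKM against 59.0, 59.7 and 57.8 FPKM, with replicate 1 the lowest hypoxia library (-1.53 ± 0.13). The 2 uncalled members, Pfkfb4 and Eno2, were below 8 FPKM with overlapping groups.

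Genes of glycogen storage followed the same direction, and Gys1 and Pgm1 among them are also in the list of HIF targets outside glycolysis. Of 12 tested, 9 were higher in hypoxia and 0 with MLN4924, with a median of -1.59. Ppp1r3c, which targets protein phosphatase 1 to glycogen, was at 49.5, 42.6 and 44.9 FPKM in hypoxia and at 3.67, 3.95 and 3.15 FPKM with MLN4924 (-3.35 ± 0.11, 10.2-fold). Gys1, glycogen synthase, was at 69.0, 88.3 and 92.3 FPKM against 22.4, 23.3 and 23.3 FPKM (-1.80 ± 0.12), and Gbe1, the branching enzyme, differed by -1.39 ± 0.10. Ppp1r3b and the liver-type phosphorylase Pygl were higher in hypoxia with all 6 libraries (-2.06 ± 0.42 and -2.15 ± 0.13), but they fell below the filter without replicate 1, since their MLN4924 libraries were all under 1 FPKM. Without that library 7 of 10 tested genes were called, with a median of -0.97, and that shift goes with the loss of these 2 genes from the test.

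The oxygen-sensing machinery was divided. Of 8 tested genes, 4 were higher in hypoxia and 2 with MLN4924. The prolyl hydroxylases Egln1 and Egln3, themselves HIF targets, were at 131, 101 and 106 FPKM and at 28.1, 24.0 and 24.6 FPKM in hypoxia, against 21.1, 21.8 and 20.4 FPKM and 4.74, 4.48 and 4.24 FPKM with MLN4924 (-2.36 ± 0.11 and -2.27 ± 0.10). Vhl, the substrate receptor for hydroxylated HIF-1α, was at 35.4, 29.1 and 26.8 FPKM in hypoxia against 14.4, 15.1 and 15.04 FPKM (-0.98 ± 0.12). Hif1a itself was lower in hypoxia, at 28.6, 26.3 and 31.5 FPKM against 37.7, 36.6 and 36.7 FPKM with MLN4924 (0.35 ± 0.09, adjusted p = 0.025). Cited2, which competes with HIF-1α for its coactivator, was at 68.6, 73.2 and 71.8 FPKM with MLN4924 against 36.2, 44.3 and 36.8 FPKM (0.85 ± 0.10). Epas1, the second HIF α subunit, did not reach 1 FPKM in enough libraries to be tested.

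**Figure D3:**
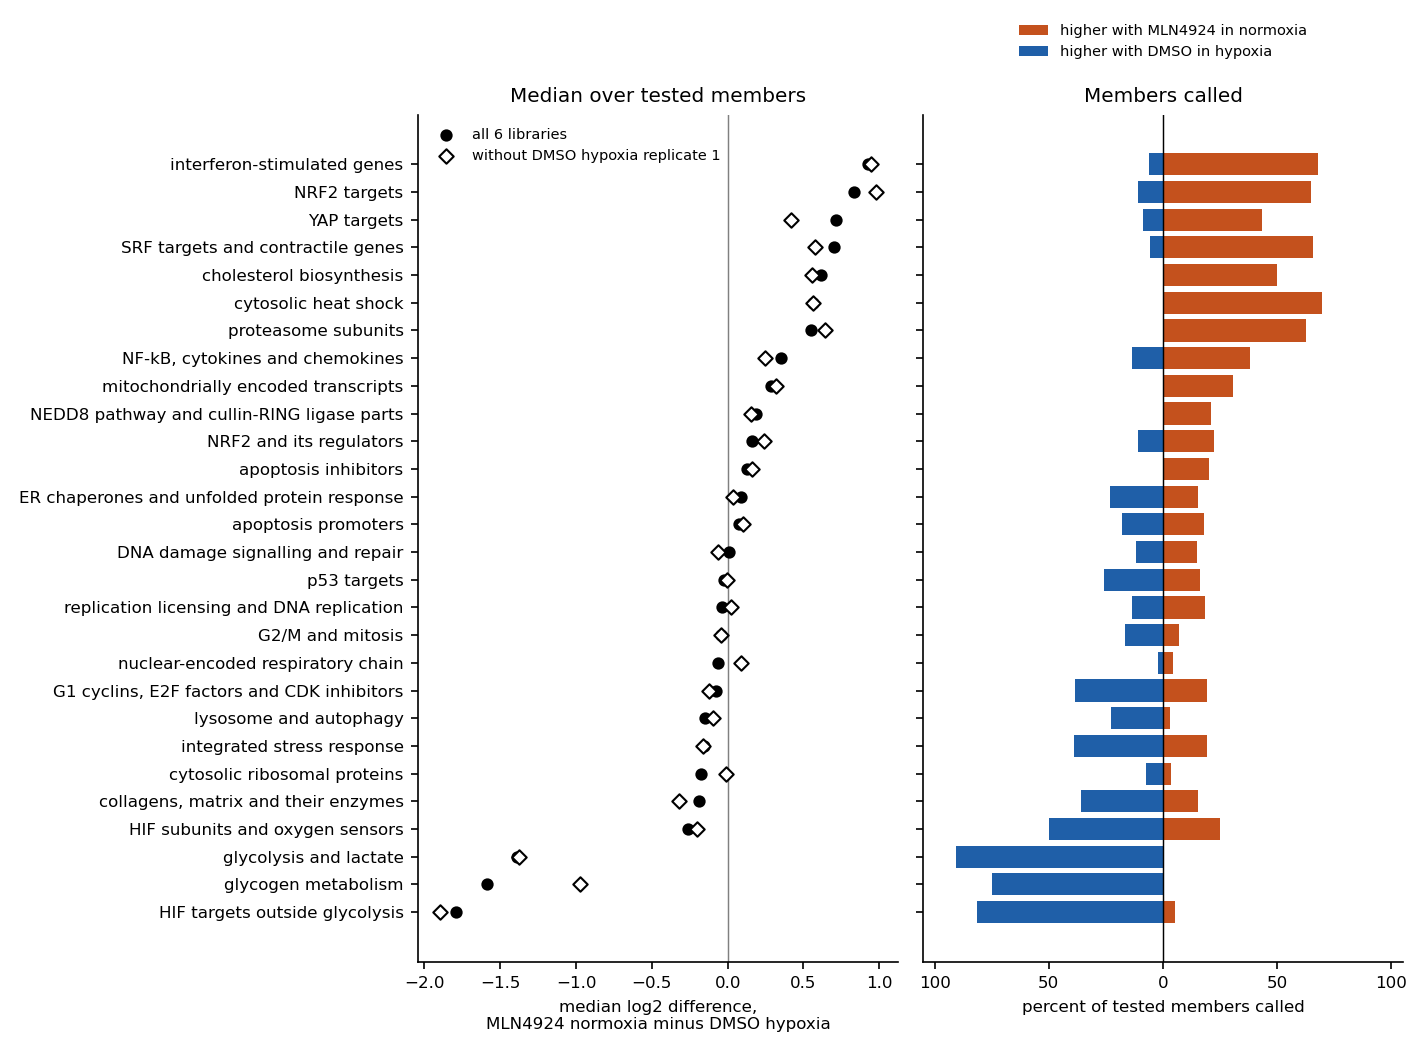
The left panel gives the median log2 difference (MLN4924 normoxia minus DMSO hypoxia, x axis) over the tested members of 28 gene lists with all 6 libraries (filled circles) and without DMSO hypoxia replicate 1 (open diamonds), and the right panel gives the percent of tested members called higher in each group. The 3 oxygen-related lists at the bottom have medians from -1.79 to -1.39, and interferon, NRF2, YAP, SRF, cholesterol, heat shock and proteasome lists lie at 0.55 to 0.93 at the top.

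NRF2 targets made up a large set on the MLN4924 side. Of 37 tested, 24 were higher in the MLN4924 libraries, by 1.43-fold to 5.58-fold, against 16.5% of all tested genes, and 4 were higher in hypoxia, with a median difference of 0.83. Without replicate 1 the counts were 30 and 4. Nqo1, a quinone reductase, was at 58.6, 57.8 and 60.15 FPKM with MLN4924 and at 20.9, 16.6 and 17.7 FPKM in hypoxia (1.63 ± 0.10). Gclm and Gclc, the subunits of the enzyme that begins glutathione synthesis, differed by 2.06 ± 0.06 and 1.13 ± 0.07, with Gclm at 159, 158 and 159 FPKM against 38.5, 35.5 and 38.0 FPKM. Srxn1, sulfiredoxin, was at 111, 109.89 and 104 FPKM against 26.4, 29.1 and 26.4 FPKM (1.95 ± 0.07). Cbr3, a carbonyl reductase, differed by 2.12 ± 0.13 and Gsta2 by 2.24 ± 0.16, although Gsta2 and Gsta1 are close paralogs whose reads may have been shared. None of these genes had overlapping groups. Gsta1, which sets the upper end of the range of folds, and Gsta2 passed the filter only through the MLN4924 libraries.

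Hmox1, heme oxygenase, was the largest exception by level. It was at 121, 129.83 and 125 FPKM with MLN4924 and at 221, 162 and 201 FPKM in hypoxia (-0.62 ± 0.12, adjusted p = 0.0121), and in DMSO normoxia at 75.6 ± 0.97 FPKM. Gstm2 (-0.43 ± 0.12), Ephx1 (-0.37 ± 0.09) and Trp53inp1 (-1.05 ± 0.18), the last of them also a p53 target, were likewise higher in hypoxia. The genes of the pathway's own regulators differed little. Nfe2l2, which encodes NRF2, was at 37.9, 43.2 and 43.8 FPKM with MLN4924 and at 47.4, 43.5 and 45.8 FPKM in hypoxia, with overlapping groups and an interval of the difference from -0.33 to 0.07. Keap1 overlapped as well (0.15 ± 0.18). Of the small MAF partners, Mafk was higher with MLN4924 (0.72 ± 0.10) and Maff was higher in hypoxia (-0.87 ± 0.12).

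Targets of SRF and YAP, factors that respond to cell shape and actin, were called more often on the MLN4924 side than on the hypoxia side. Of 35 tested SRF targets and contractile genes, 23 were higher with MLN4924 and 2, Smtn and Junb, were higher in hypoxia (-0.99 ± 0.14 and -1.05 ± 0.08). Srf itself was at 28.6, 30.01 and 28.7 FPKM with MLN4924 and at 12.2, 13.4 and 11.2 FPKM in hypoxia (1.18 ± 0.09). Of 23 tested genes of the YAP target list, 10 were higher with MLN4924, 2 in hypoxia and 11 were not called. The list also holds the factor genes Yap1, Wwtr1, Tead1 and Tead4, and Yap1 was among the 10 (0.31). Ccn1, a matricellular relative of Ccn2, was at 429, 429 and 436 FPKM against 111, 115 and 111 FPKM (1.93 ± 0.06), and Edn1, the vasoconstrictor endothelin, at 9.13, 9.94 and 8.87 FPKM against 1.94, 1.87 and 2.11 FPKM (1.79 ± 0.11). The hypoxia libraries were tight and far from the MLN4924 libraries in both. The relative Ccn3 was at 5.17, 4.97 and 4.94 FPKM in hypoxia against 2.85, 2.92 and 2.11 FPKM (-0.74 ± 0.13), and Wwtr1, the YAP paralog TAZ, was also higher in hypoxia (-0.33 ± 0.07).

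The medians of these lists moved with 1 library. Relative to the MLN4924 mean, the YAP list had a median of -1.24 in hypoxia replicate 1 and of -0.29 and -0.56 in replicates 2 and 3, and its median difference went from 0.72 to 0.42 without replicate 1. For the SRF list the values were -0.93, -0.58 and -0.64, and the median went from 0.70 to 0.58. The number of YAP targets called higher with MLN4924 was 15 without the library, and that of SRF targets 24, with 3 and 4 higher in hypoxia. The part of transcript length in this, described above for replicate 1, was not tested.

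Interferon-stimulated genes had the highest list median with all 6 libraries, and NRF2 targets, at 0.98, had it without replicate 1. Of 50 tested, 34 were higher with MLN4924 and 3 in hypoxia, with a median difference of 0.93 (0.95 without replicate 1, with counts of 37 and 4). Ifit1, which binds foreign RNA caps, was at 53.8, 56.1 and 52.2 FPKM with MLN4924 and at 12.8, 10.7 and 10.4 FPKM in hypoxia (2.17 ± 0.10). In DMSO normoxia it stood at 83.4 ± 6.55 FPKM and in MLN4924 hypoxia at 17.2 ± 0.85 FPKM, so of the 4 groups the 2 in normoxia were the high ones. Ifit3 had the same order, with 91.6 ± 12.7 and 10.8 ± 1.84 FPKM in those groups. Its paralog Ifit3b differed by 2.35 ± 0.15, with the same doubt over shared reads. Those higher in hypoxia were the exonuclease Isg20 (96.1, 77.2 and 72.2 FPKM against 29.1, 33.9 and 35.7 FPKM), the immunoproteasome subunit Psmb9 (-1.03 ± 0.18) and the MHC class I gene H2-K1 (-0.92 ± 0.11).

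Of 29 tested cytokine and NF-kB genes, 11 were higher with MLN4924 and 4 in hypoxia, and without replicate 1 the counts were 12 and 6 of 27. Csf1, the macrophage growth factor, was at 104, 106 and 102 FPKM with MLN4924 and at 19.8, 29.9 and 24.9 FPKM in hypoxia (2.04 ± 0.15). Il1rl1, the receptor of IL-33, was at 14.36, 14.47 and 14.42 FPKM against 2.23, 2.51 and 2.10 FPKM (2.23 ± 0.10). Its ligand Il33 lay the other way, at 2.49, 2.82 and 2.80 FPKM against 7.83, 6.19 and 7.69 FPKM (-1.15 ± 0.13), and the chemokine Cxcl12 was at 149, 154 and 152 FPKM against 272, 259.6 and 269 FPKM (-0.81 ± 0.06).

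Heat shock and proteasome genes that were called were all higher with MLN4924. They were 16 of 23 tested cytosolic heat shock genes and 20 of 32 proteasome subunits, with 7 and 12 not called and medians of 0.57 and 0.55. Without replicate 1 the counts were 19 and 31. Hsph1, a large chaperone of the Hsp110 class, was at 50.2, 53.1 and 49.7 FPKM with MLN4924 and at 20.7, 20.6 and 17.8 FPKM in hypoxia (1.33 ± 0.09). Hspd1 and Hspe1, chaperonins of the mitochondrial matrix kept in this list, differed by 1.32 ± 0.09 and 1.19 ± 0.16. Psmd1 and Psmd3, scaffold subunits of the proteasome base and lid, were at 112, 114 and 109.86 FPKM and at 176, 182 and 179.84 FPKM with MLN4924, against 54.5, 57.1 and 58.3 FPKM and 94.4, 98.5 and 96.9 FPKM in hypoxia. Both had groups that did not overlap, and both were near the MLN4924 level in DMSO normoxia (117 ± 3.77 and 179 ± 7.71 FPKM).

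Of 13 mitochondrially encoded transcripts, 4 were higher with MLN4924 and 0 in hypoxia, with a median of 0.29, and without replicate 1 the counts were 7 and 0. mt-Nd1, a core subunit of complex I, was at 4360.27, 4566 and 4728 FPKM with MLN4924 and at 2312, 2049 and 2211 FPKM in hypoxia (1.06 ± 0.11), and mt-Nd2 differed by 0.95 ± 0.09. The widest differences of the list had the opposite sign and were not called. The cytochrome c oxidase subunit mt-Co2 was at 87.8, 35.05 and 104 FPKM with MLN4924 and at 224, 176 and 140.37 FPKM in hypoxia (-1.35 ± 0.42, adjusted p = 0.0535), and mt-Co3, another subunit, differed by -1.37 ± 0.52 (adjusted p = 0.0927) with overlapping groups. In DMSO normoxia mt-Nd1 was at 4337 ± 377 FPKM, while mt-Co2 and mt-Co3 ranged there from 17.6 to 195 and from 0.03 to 471 FPKM. The mitochondrial share of all FPKM was 10.2% to 11.3% in the MLN4924 libraries and 5.72% to 8.12% in the hypoxia libraries. That share was 10.3% to 12.3% in DMSO normoxia and 7.15% to 7.53% in MLN4924 hypoxia. Of 44 tested nuclear genes of the respiratory chain, 2 were higher with MLN4924 and 1 in hypoxia. They were Ndufa4 (0.89 ± 0.15), Cyc1 (0.37 ± 0.09) and Ndufa6 (-0.56 ± 0.14). Without replicate 1 the counts were 15 and 7, and the median moved from -0.07 to 0.09.

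Cholesterol synthesis, which consumes oxygen at several steps, had 12 of 24 genes higher with MLN4924 and 0 in hypoxia, with a median of 0.62. Cyp51, a demethylase of lanosterol, was at 43.9, 40.8 and 43.6 FPKM with MLN4924 and at 22.4, 19.8 and 19.3 FPKM in hypoxia (1.03 ± 0.09). Hsd17b7 and Dhcr7, later enzymes of the pathway, differed by 1.3 ± 0.16 and 1.19 ± 0.23. Without replicate 1 the counts were 17 and 1.

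In the neddylation pathway itself, no gene was called at 2-fold. Of 43 tested genes of NEDD8, its enzymes and cullin-RING ligase parts, 9 were higher with MLN4924, by 1.24-fold to 1.94-fold, and 0 in hypoxia, against 16.5% and 14.3% of all tested genes. The counts were 17 and 3 without replicate 1. Nedd8 was at 137, 134 and 122 FPKM with MLN4924 and at 143, 101 and 102 FPKM in hypoxia, with overlapping groups (0.20 ± 0.15, adjusted p = 0.349). Replicate 1 was the high hypoxia library, and without it the difference was 0.36 (adjusted p = 0.00447). Nae1, the regulatory subunit of the drug's target, was at 19.1, 19.8 and 18.04 FPKM against 16.8, 12.9 and 11.7 FPKM (0.44 ± 0.14, adjusted p = 0.0566). Uba3, the catalytic subunit, was at 66.2, 63.3 and 70.04 FPKM against 95.5, 73.9 and 78.1 FPKM (-0.30 ± 0.11, adjusted p = 0.0886). Neither subunit was called with all 6 libraries, and both were without replicate 1 (0.58 with adjusted p = 0.00215, and -0.19 with adjusted p = 0.0398).

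Of the NEDD8-conjugating enzymes, Ube2f was higher with MLN4924 (22.03, 22.01 and 19.6 FPKM against 16.1, 12.3 and 13.3 FPKM, 0.58 ± 0.12), and Ube2m had overlapping groups with an interval from -0.31 to 0.22. Among the cullins, Cul1 and Cul3 differed by 0.20 ± 0.07 and 0.22 ± 0.07 with adjusted p = 0.0834 and 0.0645, and Cul2 and Cul4a by -0.05 ± 0.16 and -0.11 ± 0.16. Cand2, which exchanges substrate receptors on cullins, was at 10.5, 11.2 and 11.2 FPKM with MLN4924 and at 3.23, 6.77 and 6.04 FPKM in hypoxia (0.96 ± 0.23). Dcun1d4, a co-factor of NEDD8 ligases, was at 6.09, 5.79 and 6.25 FPKM against 4, 3.96 and 4.04 FPKM (0.49 ± 0.10).

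Replication genes, whose licensing factor CDT1 is a known substrate of cullin-RING ligases, were called in both directions, with 8 of 44 higher with MLN4924 and 6 in hypoxia, near the shares over all tested genes. The counts were 9 and 10 without replicate 1. Cdt1 RNA was at 37.8, 38.9 and 38.0 FPKM with MLN4924 and at 46.7, 44.4 and 47.7 FPKM in hypoxia (-0.27 ± 0.07, adjusted p = 0.0255). Its inhibitor geminin (Gmnn) was at 51.4, 43.4 and 49.8 FPKM against 104, 64.2 and 66.5 FPKM (-0.66 ± 0.20). The replication factor gene Mcm10 differed by 0.79 ± 0.20 and the single-strand binding protein gene Rpa1 by 0.67 ± 0.08, both higher with MLN4924. These values describe RNA, and protein levels of ligase substrates were not measured.

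Of 6 tested CDK inhibitor genes, 3 were higher in hypoxia and 3 were not called. Cdkn1a, which encodes p21, was at 171, 155 and 157 FPKM in hypoxia and at 33.1, 33.6 and 30.9 FPKM with MLN4924 (-2.27 ± 0.07, 4.83-fold, adjusted p = 4.03e-05). DMSO normoxia stood at 16.9 ± 1.21 FPKM and MLN4924 hypoxia at 136 ± 2.16 FPKM. Cdkn1b, encoding p27, was at 34.0, 26.1 and 32.8 FPKM in hypoxia against 12.1, 12.2 and 11.97 FPKM (-1.28 ± 0.11), and Cdkn2d, encoding p19, at 97.2, 66.1 and 72.2 FPKM against 35.01, 36.01 and 35.7 FPKM (-1.10 ± 0.15). In none of these 3 did the groups overlap. Cdkn2a (0.03 ± 0.12), Cdkn2b (0.24 ± 0.11) and Cdkn2c (-0.23 ± 0.09) were not called with all 6 libraries. Without replicate 1, Cdkn2a (0.16, adjusted p = 0.00764) and Cdkn2b (0.33, adjusted p = 0.00844) were called higher with MLN4924, and Cdkn2c was not (-0.16, adjusted p = 0.0527). The cyclin D1 gene Ccnd1 lay the other way, at 62.6, 63.3 and 62.1 FPKM with MLN4924 and at 16.1, 24.7 and 20.5 FPKM in hypoxia (1.59 ± 0.15), as did E2f3 (1.39 ± 0.29) and Cdk6 (1.29 ± 0.28). Over the 26 tested genes of G1 control, 5 were higher with MLN4924 and 10 in hypoxia, and without replicate 1 the counts were 8 and 11.

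Of 42 tested G2/M genes, 3 were higher with MLN4924 and 7 in hypoxia, and without replicate 1 the counts were 9 and 10. Ccnb2, a mitotic cyclin, was at 187, 144 and 151 FPKM in hypoxia against 90.0, 91.6 and 98.4 FPKM (-0.77 ± 0.11). Plk1, the mitotic kinase, was at 108, 102 and 99.0 FPKM with MLN4924 against 75.1, 81.5 and 78.5 FPKM (0.39 ± 0.07). Of 34 DNA damage and repair genes, 5 were higher with MLN4924 and 4 in hypoxia, led by Parp1 (0.81 ± 0.13), Exo1 (0.79 ± 0.22) and the kinase gene Atm (0.78 ± 0.19) on one side and Fancc (-0.52 ± 0.16) on the other. The repair counts were 5 and 8 without replicate 1. The medians of the replication, G2/M and repair lists were -0.03, -0.05 and 0.01, and each changed sign under at least 1 of the alternatives.

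Among p53 targets, 5 of 31 were higher with MLN4924 and 8 in hypoxia, with a median of -0.03, and without replicate 1 the counts were 8 and 8. Ccng2, an atypical cyclin linked to arrest, was at 77.9, 57.2 and 66.1 FPKM in hypoxia and at 9.74, 10.01 and 10.7 FPKM with MLN4924 (-2.60 ± 0.12). It and Cdkn1a led the hypoxia side. The nuclease gene Aen was at 17.1, 17.8 and 16.3 FPKM with MLN4924 and at 6.22, 5.53 and 3.52 FPKM in hypoxia (1.59 ± 0.19), and the polo-like kinase genes Plk2 and Plk3 were also higher with MLN4924 (1.13 ± 0.14 and 0.96 ± 0.11). Mdm2, the E3 ligase for p53, had overlapping groups, with an interval from -0.30 to 0.20. Trp53 was at 2146, 2175 and 2129 FPKM with MLN4924 and at 1354, 1578 and 1497 FPKM in hypoxia (0.54 ± 0.10).

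Of 28 tested promoters of apoptosis, 5 were higher with MLN4924 and 5 in hypoxia (35.7% in all, against 30.8% of all tested genes), and without replicate 1 the counts were 8 and 5 of 27. Bid, which links death receptors to mitochondria, was at 7.79, 8.04 and 8.80 FPKM with MLN4924 and at 3.13, 1.06 and 0 FPKM in hypoxia (2.17 ± 0.48, adjusted p = 0.019). The mitochondrial protease gene Htra2 was at 43.4, 41.1 and 42.1 FPKM against 29.3, 24.6 and 21.4 FPKM (0.74 ± 0.12), and the cytochrome c gene Cycs differed by 0.50 ± 0.14. Bbc3, the BH3-only gene also called Puma, was at 2.33, 1.59 and 1.98 FPKM with MLN4924 and at 5.44, 4.70 and 4.04 FPKM in hypoxia (-0.95 ± 0.16). Casp6, an executioner caspase gene, differed by -0.91 ± 0.13 and Endog, a mitochondrial nuclease gene, by -1.25 ± 0.31, both higher in hypoxia. Pmaip1 (Noxa) had overlapping groups, at 3.74, 3.13 and 2.93 FPKM against 2.97, 2.69 and 3.25 FPKM, with an interval from -0.21 to 0.42. Of 15 inhibitors of apoptosis, 3 were higher with MLN4924 and 0 in hypoxia, led by the co-chaperone gene Bag3 (0.44 ± 0.08), and without replicate 1 the counts were 5 and 0. Mcl1, Bcl2l1 and Birc5 had overlapping groups and were not called (0.24 ± 0.11, 0.46 ± 0.24 and -0.29 ± 0.16).

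**Figure D4:**
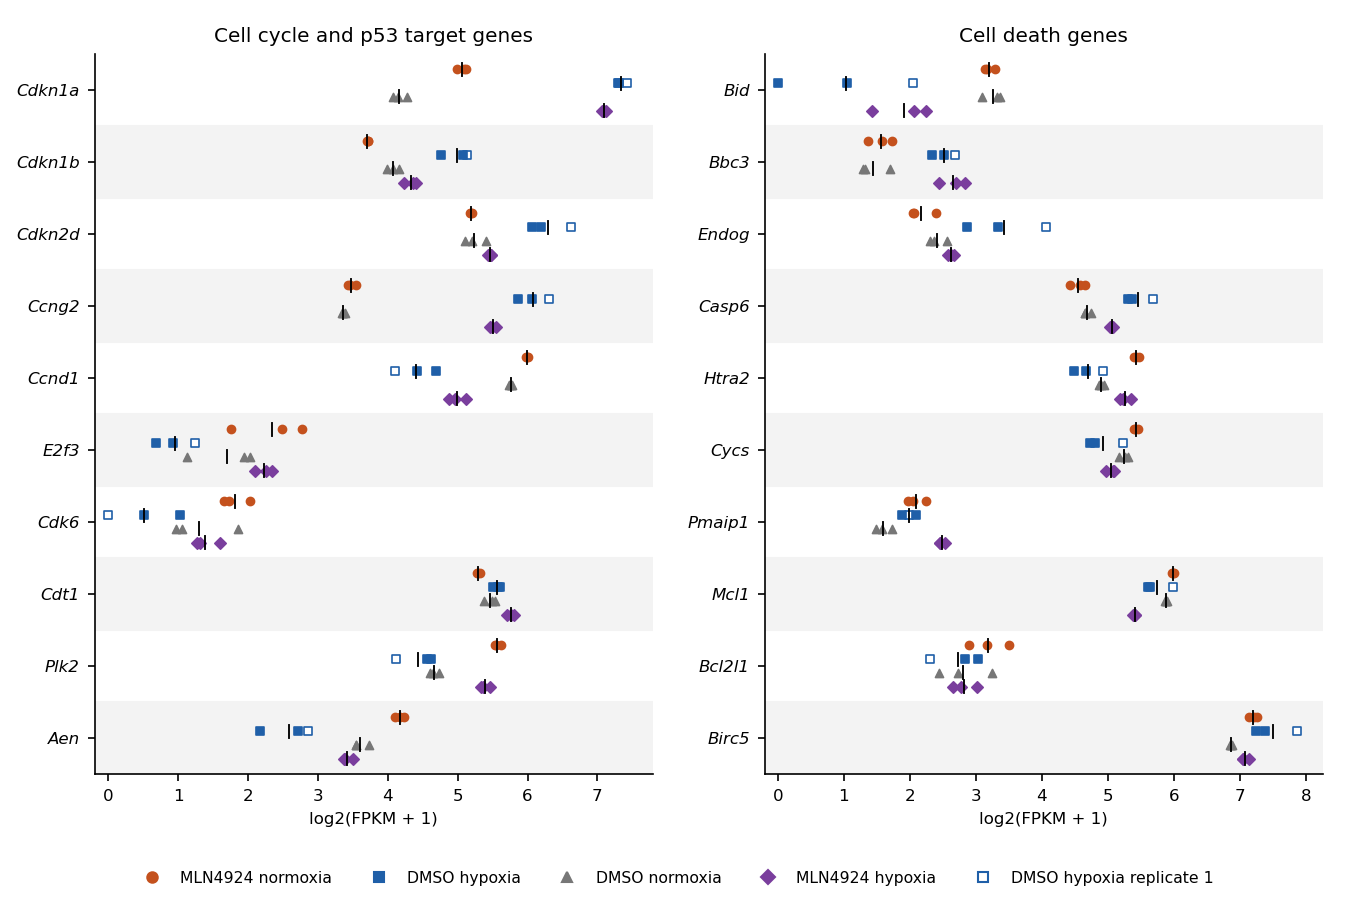
Per-library log2(FPKM + 1) (x axis) of cell cycle and p53 target genes (left) and cell death genes (right) in all 4 groups; each symbol is 1 library, black ticks are group means, and the open square is DMSO hypoxia replicate 1. Cdkn1a and Ccng2 are higher in both hypoxic groups than in both normoxic groups, and Ccnd1 and Bid are lower there. MLN4924 normoxia and DMSO hypoxia overlap for Pmaip1, Bcl2l1 and Birc5.

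The integrated stress response, the program that ATF4 drives when eIF2α is phosphorylated, held genes of both sides. Of 36 tested, 7 were higher with MLN4924 and 14 in hypoxia, with a median of -0.16, and without replicate 1 the counts were 10 and 17. Ddit4, an inhibitor of mTORC1 and also a HIF target, was at 206, 180.38 and 168 FPKM in hypoxia and at 40.0, 38.1 and 42.9 FPKM with MLN4924 (-2.17 ± 0.10). Ddit3, which encodes CHOP, was at 104, 83.7 and 78.3 FPKM against 25.3, 34.3 and 33.8 FPKM (-1.48 ± 0.16), and Vldlr, a lipoprotein receptor, at 8.34, 19.7 and 19.1 FPKM against 2.21, 2.72 and 2.04 FPKM (-2.25 ± 0.32). On the MLN4924 side were the cystine transporter Slc7a11 (13.0, 13.1 and 13.4 FPKM against 4.31, 6.55 and 5.15 FPKM, 1.18 ± 0.14), the glutamine transporter Slc1a5 (0.62 ± 0.14) and Stc2. Atf4 RNA was at 271, 288 and 299 FPKM with MLN4924 and at 409.92, 349 and 321 FPKM in hypoxia, not called with all 6 libraries (-0.32 ± 0.11, adjusted p = 0.066) and called without replicate 1 (-0.23, adjusted p = 0.0243).

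Of 26 tested genes of the unfolded protein response and its chaperones, 4 were higher with MLN4924 and 6 in hypoxia, and without replicate 1 the balance turned, with counts of 10 and 6. P4hb, a protein disulfide isomerase that is also a subunit of collagen prolyl hydroxylase, was at 1224, 1042 and 1062 FPKM in hypoxia and at 555, 556 and 562 FPKM with MLN4924 (-0.99 ± 0.09). Xbp1 was higher in hypoxia (-0.78 ± 0.09) and the chaperone Hyou1 was higher with MLN4924 (0.71 ± 0.16). In the matrix list, 6 of 39 were higher with MLN4924 and 14 in hypoxia, and without replicate 1 the counts were 8 and 20. The collagen-modifying hydroxylases P4ha2, Plod1 and Plod2, known HIF targets, led the hypoxia side (-2.09 ± 0.07, -1.86 ± 0.07 and -1.78 ± 0.09), with P4ha2 at 145, 157 and 163 FPKM against 35.02, 34.5 and 37.2 FPKM. The basement-membrane collagen Col4a1 was higher with MLN4924 (0.76 ± 0.16), as was Plaur, the urokinase receptor (1.20 ± 0.09).

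Lysosome and autophagy genes had 1 of 31 higher with MLN4924 and 7 in hypoxia, among them Ulk1, the kinase that starts autophagy (-1.15 ± 0.14). The counts were 5 and 10 without replicate 1. Ribosomal protein genes were a list where 1 library set the median. Relative to the MLN4924 mean the 55 tested genes had a median of 0.53 in hypoxia replicate 1 and of -0.01 and 0.04 in replicates 2 and 3. With all 6 libraries 2 were higher with MLN4924 and 4 in hypoxia, and without replicate 1 the counts were 12 and 18 and the median went from -0.17 to -0.01. Rpl3 (-0.73 ± 0.13) and Rps13 (1.24 ± 0.19) stood at the 2 ends.

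Markers of somatic testis cells and fibroblasts were called in both directions. Of 6 tested Sertoli cell markers, 1 was higher with MLN4924 and 2 in hypoxia, and of 7 fibroblast and peritubular markers 2 and 4 were. Wt1, a transcription factor gene of Sertoli cells, was at 7.60, 5.00 and 7.08 FPKM in hypoxia and at 0, 0 and 0.50 FPKM with MLN4924 (-2.71 ± 0.23). It passed the filter only through the hypoxia libraries and was not tested without replicate 1. Sox9, another such gene, was at 6.56, 8.82 and 7.72 FPKM against 2.40, 2.35 and 2.09 FPKM (-1.40 ± 0.13). Gdnf, a growth factor gene of Sertoli cells, lay the other way, at 2.68, 3.86 and 3.27 FPKM with MLN4924 against 1.53, 1.28 and 1.17 FPKM (0.87 ± 0.15), as did the fibroblast receptor gene Pdgfra (0.71 ± 0.18). Over the 9 Sertoli cell markers with a row, the summed level was 38.3 to 45.4 FPKM with MLN4924 and 48.0 to 53.2 FPKM in hypoxia, while Fshr, which defines the type, was listed at 0 in all 6 libraries. Over 10 fibroblast and peritubular markers the sums were 1660 to 1680 FPKM and 2550 to 2650 FPKM. Col1a1 was at 367, 367 and 365 FPKM with MLN4924 and at 575, 739 and 739 FPKM in hypoxia (-0.89 ± 0.12), and Vim differed by -1.09 ± 0.13, whereas Acta2, a peritubular marker, was far higher with MLN4924. The part of cell makeup in the differences between the groups was not tested.

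Other genes stood away from DMSO normoxia in both treatments and did not separate them. Those described here were chosen on their values, from the 8 genes with the narrowest bounds on the difference among those at least 2-fold from DMSO normoxia in the same direction in both groups, so they are given as a description. Chac1, the glutathione-degrading enzyme induced by ATF4, was at 35.3, 38.1 and 39.2 FPKM against 38.6, 47.0 and 40.5 FPKM, with 10.8 ± 0.49 FPKM in DMSO normoxia and 68.7 ± 2.34 FPKM in MLN4924 hypoxia. The stress factor Atf3 had a like order, at 5.87 ± 0.67 and 6.41 ± 0.58 FPKM in the 2 groups, 2.35 ± 0.42 FPKM in DMSO normoxia and 13.2 ± 1.28 FPKM in MLN4924 hypoxia. Eno3, the muscle enolase, lay below DMSO normoxia in both (20.5 ± 1.32 and 21.3 ± 1.29 FPKM against 43.8 ± 0.39 FPKM), with an interval from -0.26 to 0.16, unlike the 19 glycolysis genes called. Abat, Sfrp4, Rcan1 and Mex3c were also among them, and DMSO normoxia itself scattered widely for Rcan1 (0.14 to 9.24 FPKM) and Mex3c (0.14 to 12.4 FPKM).

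Set beside DMSO normoxia, which both treatments share as a reference so that the paired values are not independent, the lists differed in where the 2 groups lay. For HIF targets the median log2 difference from DMSO normoxia was -0.45 with MLN4924 and 1.36 in hypoxia, and for glycolysis it was -0.49 and 0.89. The gap between the treatments in these lists thus had a part on either side of the DMSO normoxia level. For NRF2 targets the values were 0.58 and -0.21, for SRF targets 0.42 and -0.24, and for heat shock genes 0.21 and -0.34. Interferon-stimulated genes (-0.21 and -1.12) and proteasome subunits (0.10 and -0.45) were nearer to DMSO normoxia with MLN4924, and the integrated stress response was above it in both (0.63 and 0.90). In MLN4924 hypoxia the medians were 0.93 for HIF targets, 0.36 for NRF2 targets, 0.45 for SRF targets, -0.67 for interferon-stimulated genes and 1.29 for the integrated stress response.

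**Figure D5:**
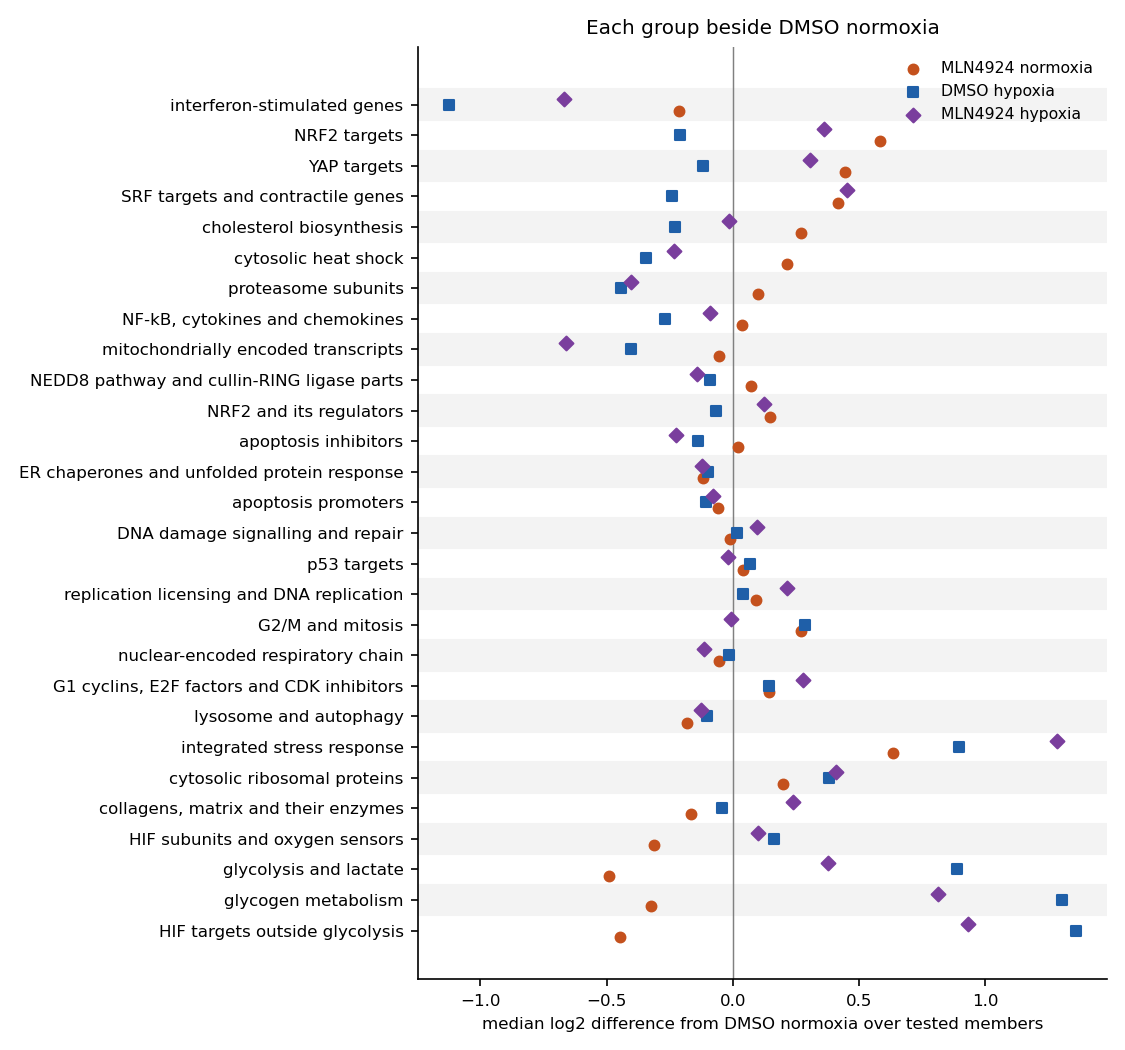
Median log2 difference from DMSO normoxia (x axis) over the tested members of each of 28 gene lists for MLN4924 normoxia (circles), DMSO hypoxia (squares) and MLN4924 hypoxia (diamonds); all 3 share the DMSO normoxia libraries. HIF targets lie at -0.45, 1.36 and 0.93 and NRF2 targets at 0.58, -0.21 and 0.36, in that order of groups.

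The combined treatment lay between the single ones for most of the widely separated genes, and so did DMSO normoxia. On a scale where the MLN4924 mean is 0 and the hypoxia mean is 1, the 344 genes at least 2-fold higher with MLN4924 with and without replicate 1 and with groups that did not overlap had a median of 0.458 in MLN4924 hypoxia (quartiles 0.292 and 0.642). For the 316 such genes higher in hypoxia it was 0.616 (0.414 and 0.761). DMSO normoxia lay at 0.413 and 0.339. In MLN4924 hypoxia 308 and 282 of the genes lay between the 2 means, and in DMSO normoxia 290 and 273 did. Lying between was thus about as common in the untreated group. In MLN4924 hypoxia, Acta2 and Tagln were at or above the MLN4924 mean (406 ± 15.8 and 32.8 ± 2.41 FPKM). There Ifit3 was near the hypoxia mean, and Sprr1a, at 15.3 ± 2.50 FPKM, was near the MLN4924 mean of 11.7 ± 2.06 FPKM. Because the genes were chosen for this contrast, these positions are a description.

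Promoter motifs were counted on either strand in windows of 300 bases, from 250 before to 50 after each RefSeq start (GRCm38.p6), for 8906 of the tested genes matched by symbol, some with several starts. The HIF core was present in 63.4% of the promoters of tested genes, in 63.5% of those of genes at least 2-fold higher in hypoxia and in 66.1% of those at least 2-fold higher with MLN4924. It was present in 33 of 40 promoters (82.5%) of the HIF target list and 26 of 34 (76.5%) of the glycolysis list. These 5 letters are also part of the E-box CACGTG that other factors bind. The interferon-stimulated response element was in 3.16% of promoters of tested genes, in 1.97% of those higher in hypoxia and in 8.93% of those higher with MLN4924, and in 18 of 47 (38.3%) of the interferon list. The NRF2 element was in 14.3%, 13.6% and 16.6%, and in 11 of 39 (28.2%) of the NRF2 list. The CArG box in its strict form was in 1.28%, 1.09% and 2.3%, and in 8 of 38 (21.1%) of the SRF list. The TEAD site GGAATG, searched on both strands for the partners of YAP, was in 11.8%, 9.63% and 12.8%, and in 12 of 17 (70.6%) of the YAP list. Shares over all promoters of the RefSeq table were 43.8% for the HIF core, 3.44% for the interferon element, 12.4% for the NRF2 element, 1.63% for the CArG box and 14.7% for the TEAD site.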

How the data were processed

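RNA-seq values of 12 GC-2 libraries were used as deposited. The authors' table holds FPKM per gene symbol and library, with 24770 genes; per the submitters' processing notes fastp, STAR and RSEM 1.3.3 were run with genome build mm39, and the role and settings of each tool are not given in the sources used here. FPKM hold no read counts, so depth was unknown and no counting interval is given. The fit took log2(FPKM + 1) of the 6 libraries compared, in limma 3.58.1 (R 4.3.3), with 1 mean per group, an intensity trend, two-sided tests, Benjamini-Hochberg adjustment over 11751 genes, threshold 0.05. Genes needed 1 FPKM in 3 of the 6 libraries. The script was tested on simulated data.

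The groups, lists and rule for named genes were chosen with earlier results of these data known. The rule took the 12 largest called genes in each direction (called also without DMSO hypoxia replicate 1, at least 5 FPKM, no overlap), the 3 largest called members of each list in each direction, a set of pathway genes, and 8 genes that did not separate the treatments. Nqo1, Gclm, Gclc, Srxn1, Ldha, Pgk1, Slc2a1, Gys1, Gbe1, Pfkfb4, Eno2, Srf, Wt1, Sox9, Gdnf, Pdgfra, Col1a1, Vim, Cdkn2a, Cdkn2b, Cdkn2c, mt-Co2 and mt-Co3, and the markers Uchl1 and Gfra1, were named after their values were seen. Lists are described by counts and medians, with no list test. They share some genes, such as Slc7a11 in those of NRF2 targets and the integrated stress response. Some genes that the rule selects are not reported here.

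Transcript lengths (GENCODE for GRCm38) and promoters (RefSeq, GRCm38.p6) were joined by symbol. Alternatives were each library left out, all 12 libraries in 1 fit, a replicate block, other scalings, pseudocounts and filters, no trend, array weights and a robust prior. With DMSO hypoxia replicate 1 left out, genes filtered on all 6 libraries were added after seeing the data.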

Additional observations from a re-analysis of the deposited data

How the results depend on the processing

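Over 19 alternatives the counts of genes higher with MLN4924 and in hypoxia (1938 and 1678) moved most with the libraries kept or their weights. With 1 library left out they ran from 938 to 3058 and from 970 to 2186, lowest without an MLN4924 library and highest without DMSO hypoxia replicate 1. Without that replicate and with genes filtered on all 6 libraries they were 3051 and 2316, and with array weights, which gave replicate 1 a weight of 0.102, 3273 and 2587. Deviations from the group means correlated at -0.0428, -0.0153 and 0.0131 between same-numbered libraries. With 3 libraries per group this cannot settle whether the replicate numbers pair the samples, and the labels do not say. A fit with the replicate number as a block gave 1233 and 1143. A pseudocount of 5 gave 160 and 193 genes at 2-fold. Equal totals without mitochondrial transcripts moved the share of calls higher with MLN4924 from 53.6% to 59.8%, and median-of-ratios scaling to 48.7%.

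Of the 24 genes with the largest differences, only Nolc1 (8 alternatives, adjusted p up to 0.123) and Gm1943 (3, up to 0.0738) lost the call. Of the 164 named genes that were called, 52 lost the call when at least 1 library was left out, all with an adjusted p of 0.0086 or more, and 112 kept it wherever they were tested. The lost ones among genes described above were Atm, Bag3, Bid, Cand2, Cdk6, Cdt1, Col4a1, Cyc1, Cycs, Dcun1d4, Dhcr7, E2f3, Endog, Exo1, Fancc, Gm1943, Gmnn, Gstm2, Hif1a, Hmox1, Hyou1, Mcm10, Ndufa6, Nolc1, Pdgfra, Plk1, Ppp1r3b, Slc1a5, Trp53, Ube2f and Wwtr1. Without DMSO hypoxia replicate 1 alone, 0 of those still tested lost it. Pygl, Ppp1r3b and Wt1, among genes described above, were not tested there. Sign changes among the 197 named genes were limited to uncalled ones. With 1 library left out the differences ran from -0.13 to 0.0512 for Ube2m, from -0.20 to 0.0955 for Cul2, from -0.0316 to 0.31 for Keap1, from -0.0557 to 1.23 for Eno2, from -0.0038 to 0.12 for Rcan1, from -0.12 to 0.10 for Mex3c, from -0.0358 to 0.16 for Cdkn2a and from -0.23 to 0.18 for Abat. Without replicate 1 under the 6-library filter Cul2 was at 0.0955 and Eno2 at -0.0557. Equal totals without mitochondrial transcripts gave 0.0383 for Ube2m, 0.0363 for Cul2, 0.0327 for Mdm2, 0.033 for Eno3 and 0.0338 for Abat. Array weights gave 0.0062 for Cul2, 0.0177 for Mdm2, 0.0017 for Eno3 and -0.0401 for Mex3c, and median-of-ratios scaling gave -0.019 for Mex3c and -0.0056 for Cdkn2a. The cause was not tested. Unknown depth leaves genes near 1 FPKM with the least certain differences.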
